A study of Mus musculus with 34 samples.

Results

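The cytokine and colony-stimulating factor genes described here are Tnf, Il6, Il1a, Il1b, Il15, Il18, Lif, Csf1 and Csf2, 9 of 21887 protein-coding mouse genes. They were taken from a list chosen with earlier results of these data known. The proteins mapped by ChIP-seq, in which DNA attached to one protein is pulled down with an antibody and sequenced, were p65, PDX1 and SIN3A in Beta-TC6 cells, an insulin-producing mouse β-cell tumour line. Every group had received a 1 h pulse of 10 µM forskolin to synchronise the cells. The p65 and PDX1 groups were Bmal1-/- cells with IL-1β, Bmal1-/- control cells, wild-type (WT) cells with IL-1β and WT control cells, with 3 immunoprecipitated samples each. The SIN3A groups were WT cells with Pdx1 siRNA and WT cells with control siRNA, with 2 samples each. Neither the dose and duration of IL-1β, nor whether the Bmal1-/- cells are 1 clone, nor whether the samples are separate cultures, was stated in the labels. The 10 peak lists hold 1 value per peak and group and none per replicate. No difference between conditions could therefore be tested, and tag counts of different lists stand side by side as a description. Peak lists carry no expression, so the loss of Bmal1, the depletion of Pdx1 and β-cell markers could not be checked in them.

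A peak was assigned to the nearest protein-coding gene body within 50 kb (mm10), which gave 69 peaks at these genes out of 174035 peaks in the 10 lists. Peaks that overlapped between lists were joined, which left 34 separate sites. Of these, 19 carried p65 alone, 9 carried PDX1 alone, 5 carried both p65 and PDX1, and 1 carried p65 and SIN3A. Strength is given as tags within the peak per 10 M sequenced tags, abbreviated tags. Intervals in brackets are exact 95% Poisson intervals of the tags behind a value, and they cover counting error only. Sequencing depth was 53.5 to 63.9 M tags for p65 and PDX1 and 31.0 to 35 M for SIN3A. The antibody label of the samples titled PDX1 with IL-1β, in both genotypes, names p65, and the titles were followed.

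NF-κB is a family of dimeric transcription factors held in the cytoplasm by inhibitor proteins and released when receptors for TNF or IL-1 signal, and p65 (RELA) is its main activating subunit. Many of the genes that NF-κB binds encode further cytokines, so that the pathway can feed itself. PDX1, a homeodomain protein, keeps mature β-cells expressing their own genes, and SIN3A holds together complexes that remove acetyl groups from histones. BMAL1 is an activator of the circadian clock. IL-1β is known to impair insulin secretion by β-cells.

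The stretches before 3 start sites are shown because p65 lay in different places relative to them: on the start of Il6, just inside Csf1, and at the opposite end of Tnf. They are the 250 bases before the start site in the direction of the gene (RefSeq, GRCm38.p6, the assembly of mm10), at chr5:30012864-30013113 (plus strand), chr3:107760470-107760719 (minus strand) and chr17:35202008-35202257 (minus strand). Capitals mark matches to the 10-base NF-κB consensus on either strand.
Il6: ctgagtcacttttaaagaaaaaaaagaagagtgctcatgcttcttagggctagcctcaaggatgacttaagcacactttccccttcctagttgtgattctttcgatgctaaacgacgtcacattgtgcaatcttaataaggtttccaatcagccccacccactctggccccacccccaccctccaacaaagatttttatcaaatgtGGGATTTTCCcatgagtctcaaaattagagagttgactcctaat
Csf1: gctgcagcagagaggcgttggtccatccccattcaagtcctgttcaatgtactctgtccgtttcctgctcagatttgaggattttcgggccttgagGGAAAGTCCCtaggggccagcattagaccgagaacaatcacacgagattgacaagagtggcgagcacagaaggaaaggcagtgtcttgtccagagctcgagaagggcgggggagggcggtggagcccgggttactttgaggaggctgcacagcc
Tnf: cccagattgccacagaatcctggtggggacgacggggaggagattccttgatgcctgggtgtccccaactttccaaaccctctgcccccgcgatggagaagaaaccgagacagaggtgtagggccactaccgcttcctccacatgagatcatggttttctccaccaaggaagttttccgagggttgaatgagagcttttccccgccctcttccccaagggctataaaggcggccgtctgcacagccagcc

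Il6 and Csf1 were the 2 of 8 genes with such a sequence that held the consensus, which was present in 3.9% of 32851 windows of the same length. The Il6 match lay 44 to 35 bases before the start and inside the p65 peak of both IL-1β lists. The Csf1 match lay 154 to 145 bases before the start, outside the p65 peaks and 191 and 219 bases from their edges in Bmal1-/- and WT cells with IL-1β. A looser pattern that contains the consensus, GGG followed after any 5 bases by CC, was found on either strand in 4 of 8 genes (Tnf, Il6, Lif and Csf1) and in 45.8% of all windows. The letters TAATTA, part of the recognition sequence of many homeodomain factors, were found before Il18 alone among the 8 genes and in 4.84% of all windows. No PDX1 peak lay within 500 bases of the Il18 window or of any of the other windows.

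With IL-1β, p65 had a peak at most of these genes, and the strongest lay at Tnf, Csf1, Il15 and Lif. In Bmal1-/- cells with IL-1β 6 of 9 genes had a p65 peak (all but Il1a, Il1b and Il18), where 33.0% of all protein-coding genes did. In WT cells with IL-1β 7 of 9 had one (Il1a in addition), where 46.1% of all genes did. Without IL-1β no gene of the 9 had a peak in Bmal1-/- cells (0.676% of all genes) and 3 had one in WT cells (Il15, Csf1 and Csf2, 9.01% of all genes). Peaks among the strongest 5% of a list, a limit chosen after the values were seen, lay at 3 of 9 genes in Bmal1-/- cells with IL-1β (2.86% of all genes) and at 4 of 9 in WT cells with IL-1β (5.13% of all genes). The genes were thus more often among those with the strongest p65 peaks than all genes were, and no test was made of this. Since the genes were chosen with earlier results of these data known, this describes the chosen genes only. Over all their peaks the median was 17.3 tags in Bmal1-/- cells with IL-1β (12 peaks, against 9.18 for the whole list) and 8.96 tags in WT cells with IL-1β (24 peaks, against 10.3). The median of these genes was thus above that of the list in Bmal1-/- cells and below it in WT cells. These medians cover different peaks: Csf1 gave 6 of the 12 in Bmal1-/- cells, and only 12 of the 24 WT peaks were shared. At the shared peaks of these genes the median ratio of Bmal1-/- to WT tags was 0.416, against 0.517 over all shared peaks. The medians therefore do not show that p65 at these genes was relatively stronger in Bmal1-/- cells.

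**Figure D1:**
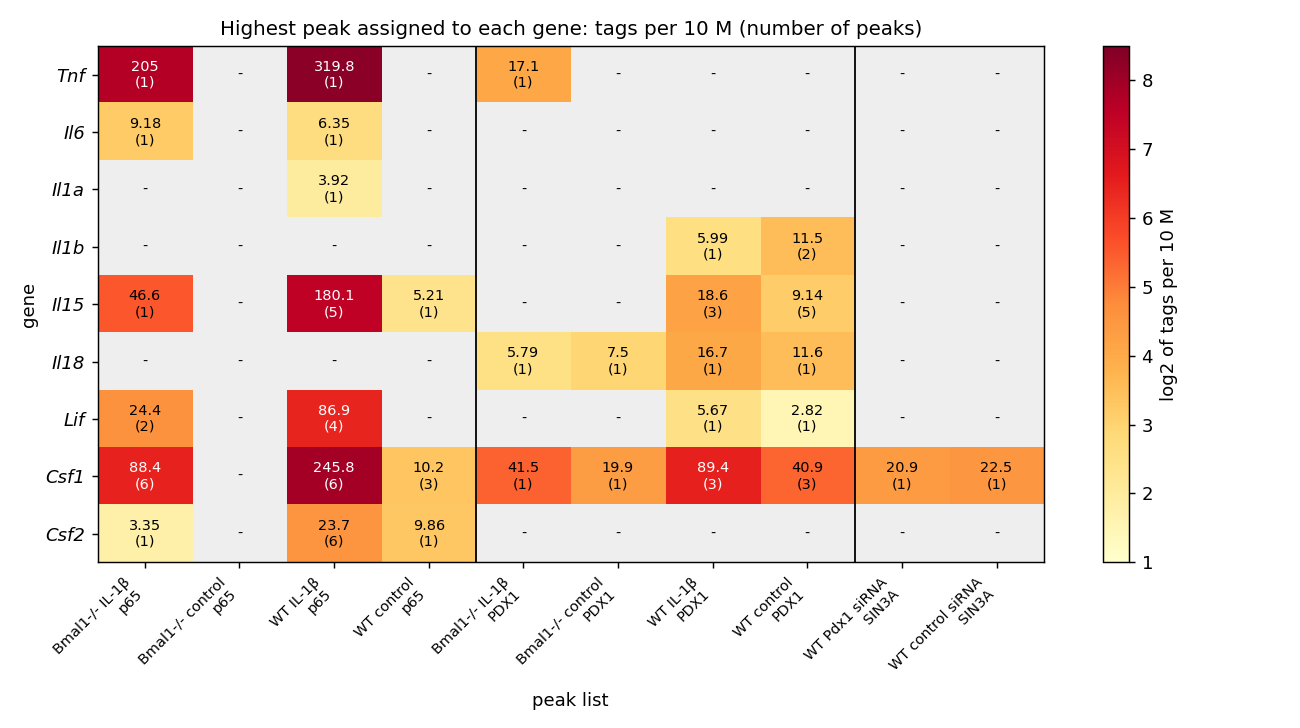
Highest peak assigned to each gene (rows) in each peak list (columns), with the value in tags per 10 M and the number of peaks in brackets; the colour is log2 of the tags, and a dash means no peak. The p65 columns with IL-1β hold the highest values, up to 205 tags in Bmal1-/- and 319.8 tags in WT cells at Tnf, and Csf1 is the gene with a peak in 9 of 10 lists.

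Tnf, which encodes the inflammatory cytokine that signals through the TNF receptors, carried the strongest p65 peak of the 9 genes. The peak had 205 tags in Bmal1-/- cells with IL-1β (193 to 217) and 319.8 tags in WT cells with IL-1β (305 to 335), and no peak was called there in either control list. It was the peak with rank 2 by tag count of 16162 in Bmal1-/- cells and rank 25 of 31389 in WT cells. In WT cells it spanned 35199079 to 35199285 on chromosome 17, outside the gene body by 82 bp and at the end opposite to the start site, its centre 2825 bp after the start (Tnf, 35199367 to 35202007, minus strand). No p65 peak lay within 500 bases of the window before the Tnf start shown above. This was the single p65 peak assigned to Tnf in each IL-1β list, but 4 further p65 peaks within 50 kb were nearer to other genes. The closest of these, 8.3 kb away on the side of the start, was assigned to Lta, encoding the related cytokine lymphotoxin α, with 30.4 tags in Bmal1-/- cells and 36.8 tags in WT cells. The other 3 lay in Aif1, Prrc2a and Ddx39b, with 62.5, 47.8 and 15.2 tags in Bmal1-/- cells and 74.9, 83.5 and 17.9 tags in WT cells.

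Csf1, encoding the growth factor of the macrophage lineage, had 6 p65 peaks with IL-1β in both genotypes. As many were assigned to 1.21% of all genes in Bmal1-/- cells and to 3.9% in WT cells. The highest lay 15.5 kb upstream of the start, with 88.4 tags in Bmal1-/- cells (80.9 to 96.5) and 245.8 tags in WT cells (233 to 259). The second lay 8.3 kb upstream, with 60.6 tags in Bmal1-/- cells (54.3 to 67.3) and 135.2 tags in WT cells (126 to 145). The third lay within the gene body at its start (chromosome 3, 107760189 to 107760395 in WT cells), with 57.7 tags in Bmal1-/- cells (51.6 to 64.3) and 133.2 tags in WT cells (124 to 143). The other 3, at 31.5 and 30.0 kb upstream and beyond the far end of the gene, had 7.41 to 10.2 tags in Bmal1-/- cells and 22.0 to 25.2 tags in WT cells. In WT control cells the start site and the site 8.3 kb upstream already had p65 peaks, of 10.2 tags (7.71 to 13.3) and 6.51 tags (4.53 to 9.05). Another WT control peak, inside the gene (7.62 tags), was in no other list. At each of these upstream and start sites the WT IL-1β value was above the WT control value with intervals that did not overlap.

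**Figure D2:**
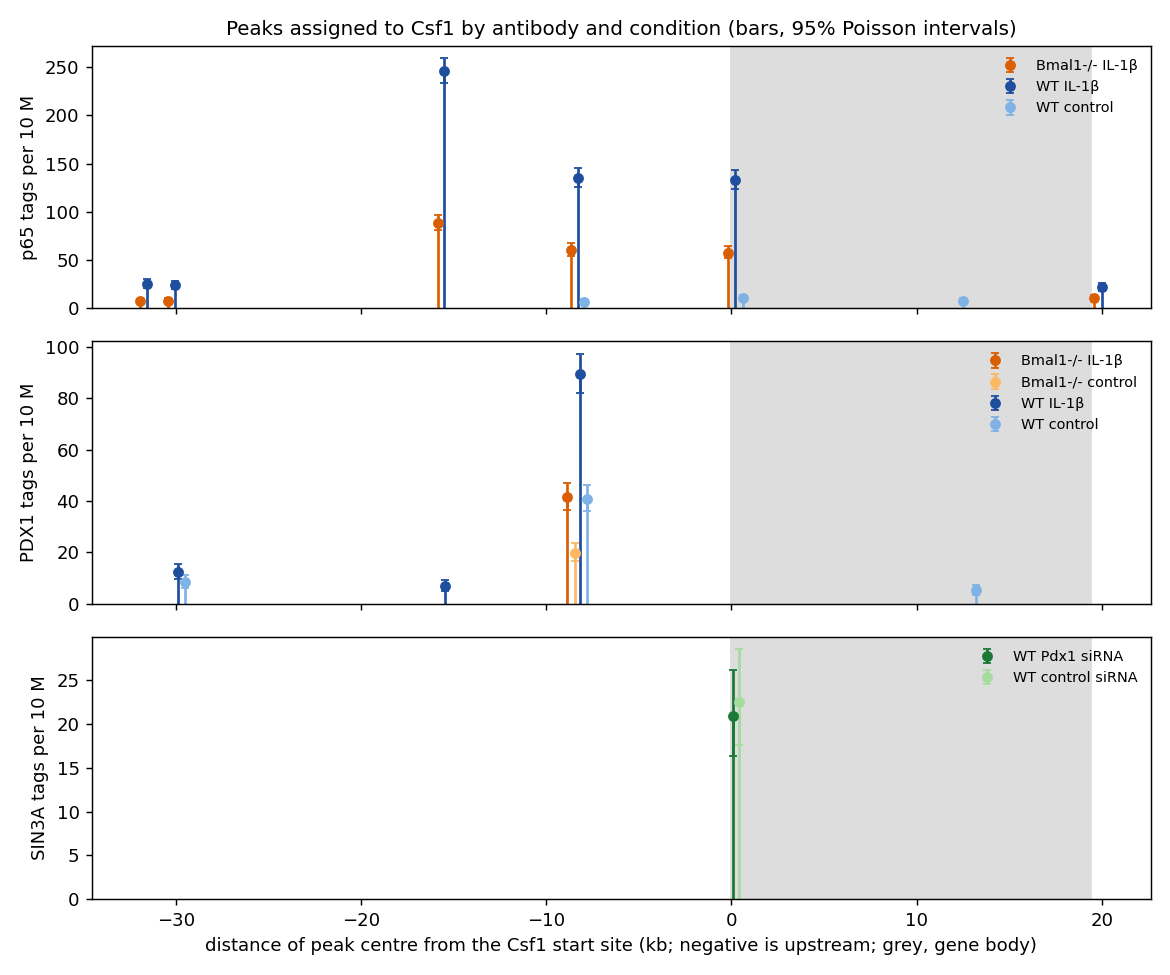
Peaks assigned to Csf1, with tags per 10 M (vertical, with 95% Poisson intervals as bars) against the distance of the peak centre from the start site in kb (horizontal), in panels for p65, PDX1 and SIN3A; points of different lists are set slightly apart along the horizontal axis, and Bmal1-/- control p65 had no peak here. The p65 peaks with IL-1β stand highest 15.5 kb upstream (88.4 tags in Bmal1-/- and 245.8 tags in WT cells), PDX1 peaks 8.3 kb upstream, and SIN3A is at the start.

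Il15, which encodes a cytokine that sustains natural killer and memory T cells, had its strong p65 site inside the gene and close to its higher-coordinate end. There p65 had 46.6 tags in Bmal1-/- cells with IL-1β (41.2 to 52.6), 180.1 tags in WT cells with IL-1β (169 to 192) and 5.21 tags in WT control cells (3.46 to 7.53). In WT cells with IL-1β this peak (chromosome 8, 82402762 to 82402968, centre 387 bp from the gene end) was joined by 4 weak ones, of 4.3 to 11 tags. The weak ones had no counterpart in the other p65 lists.

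Lif, which encodes a cytokine of the interleukin-6 family, had 1 strong p65 site, inside the gene and about 5.4 kb after its start. It had 24.4 tags in Bmal1-/- cells with IL-1β (20.5 to 28.8) and 86.9 tags in WT cells with IL-1β (79.1 to 95.1), and was in neither control list. Beyond the gene, 1 further p65 peak in Bmal1-/- cells (3.53 tags) and 3 in WT cells (3.55 to 5.6 tags) were assigned to it.

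Il6, which encodes the acute-phase cytokine interleukin-6, and Csf2, which encodes the granulocyte-macrophage colony-stimulating factor, had weak p65 peaks. The Il6 peak lay on the start site, over the consensus shown above, with 9.18 tags in Bmal1-/- cells with IL-1β (6.86 to 12) and 6.35 tags in WT cells with IL-1β (4.4 to 8.87). These intervals overlap, and at 5.86-fold and 4.78-fold over input in Bmal1-/- and WT cells, neither Il6 peak remained when at least 8-fold was asked for. Csf2 had 1 p65 peak in Bmal1-/- cells with IL-1β, of 3.35 tags (2.02 to 5.24), and 6 in WT cells with IL-1β, of 4.3 to 23.7 tags. The highest lay 45 kb beyond the far end of Csf2, and the nearest to the start lay 2.2 kb upstream with 9.15 tags. In WT control cells a single Csf2 peak 47.6 kb beyond the far end had 9.86 tags (7.38 to 12.9), against 7.28 tags (5.18 to 9.96) at the same place with IL-1β. That site was the one of these genes at which the IL-1β value was the lower of the pair, with overlapping intervals.

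Little p65 was assigned to the interleukin-1 genes themselves. Il1a had 1 weak peak, 20.5 kb upstream, in WT cells with IL-1β (3.92 tags, 2.43 to 6.0) and none in Bmal1-/- cells with IL-1β, and 16.1% of all genes had a p65 peak in WT and not in Bmal1-/- cells with IL-1β. A stronger p65 peak in WT cells with IL-1β (7.66 tags), 38429 bp from Il1a, was nearer to Ckap2l. Il1b, which encodes the cytokine given to the cells, and Il18, which encodes a related cytokine matured by the inflammasome, had no p65 peak assigned in any list. This rests on the nearest-gene rule. When any of the 9 genes within 50 kb was counted, all 9 had a p65 peak in WT cells with IL-1β, and 7 in Bmal1-/- cells with IL-1β. A list without a peak does not show that p65 was absent: the lowest listed values were 3.18 tags in Bmal1-/- cells with IL-1β, 5.33 tags in Bmal1-/- control cells, 2.8 tags in WT cells with IL-1β and 3.16 tags in WT control cells. The WT control value at Il15 (5.21 tags) lay below the lowest value of the Bmal1-/- control list, so a value like it might not have been listed there. The WT control values at Csf1 and Csf2 (6.51 to 10.2 tags) lay above that lowest value and below the list's median of 13.1 tags. Whether values like these would have been listed in Bmal1-/- control cells was not tested.

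Between IL-1β and control lists, shared p65 peaks lay at Csf1, Il15 and Csf2. Of the 12 p65 peaks in Bmal1-/- cells with IL-1β none overlapped a control peak by at least 1 bp, as against 0.724% of all peaks of that list. In WT cells with IL-1β 4 of 24 peaks overlapped a control peak, as against 5.07% of all peaks, and 4 of 5 control peaks overlapped a peak with IL-1β, as against 50.4% of all control peaks. At gene level Tnf, Il6, Il1a and Lif had p65 peaks in WT cells only after IL-1β (4 of 9, as against 38.1% of all genes). The ratio of tags with IL-1β to tags in control cells was 34.6 at Il15, 20.8 at Csf1 8.3 kb upstream, 13.1 at the Csf1 start and 0.738 at Csf2, with a median of 2.1 (quartiles 1.2 and 7.57) over all 1592 WT peaks in both lists. The first 3 of these ratios were above the upper quartile and the last below the lower one. The WT control peaks of Il15 and Csf1 were under 8-fold over input, and with that limit in both lists no shared peak was left.

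The p65 peaks of Bmal1-/- cells with IL-1β at these genes were all found in WT cells with IL-1β as well. They numbered 12 of 12, as against 79.1% of all peaks of the Bmal1-/- list, and 12 of 24 WT peaks were found in Bmal1-/- cells, as against 40.7% of all WT peaks. These counts rest on an overlap of at least 1 bp. With centres within 100 bp, or a reciprocal overlap of 50%, 10 peaks were shared, because the Lif peaks were offset between the genotypes. Tag counts in Bmal1-/- cells were lower at 11 of the 12 shared peaks. The median ratio of Bmal1-/- to WT tags was 0.416 at these 12 peaks and 0.517 over all 12777 shared peaks (quartiles 0.403 and 0.678), and 9 of the 12 were below that median. Csf1 alone gave 6 of the 12, all below it (0.294 to 0.464), and peaks of 1 gene are not independent. At the other genes, Il15, Csf2 and the stronger Lif peak lay below the median, and Tnf, Il6 and the weaker Lif peak above it. The ratio was 0.641 at Tnf, 0.36 at the strongest Csf1 site, 0.281 at Lif and 0.259 at Il15, the last at percentile 4.03 of all shared peaks. Il6 was the exception, with a ratio of 1.45 from 52 and 34 tags. The list of Bmal1-/- cells as a whole held 2.33% of its tags inside peaks, against 5.98% in the WT list, and the part of this in the ratios was not tested.

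**Figure D3:**
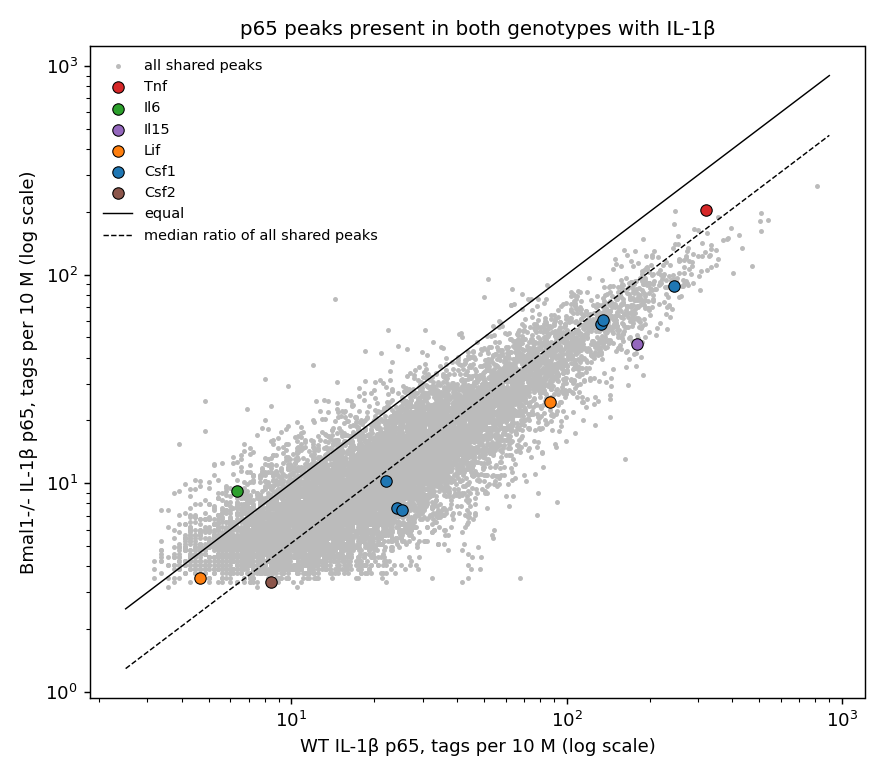
Tags per 10 M of p65 peaks present in both genotypes with IL-1β, Bmal1-/- (vertical) against WT (horizontal), both on log scales; grey points are all 12777 shared peaks, coloured points those at the named genes, the solid line marks equal values and the dashed line the median ratio of 0.517. Il15 and the stronger Lif peak lie below the dashed line, Tnf and the weaker Lif peak above it, and Il6 above the line of equal values.

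Csf1 and Il18 were the genes with a PDX1 peak in all 4 PDX1 lists. In Bmal1-/- cells PDX1 had a peak at 3 of 9 genes with IL-1β (Tnf, Il18 and Csf1, as against 16.1% of all genes) and at 2 of 9 without it (Il18 and Csf1, 16.5% of all genes). In WT cells it had one at the same 5 of 9 genes, Il1b, Il15, Il18, Lif and Csf1, with IL-1β (41.4% of all genes) and without it (42.0% of all genes). These shares lay near those of all genes in WT cells. The medians were 17.1 and 13.7 tags in Bmal1-/- cells with and without IL-1β (3 and 2 peaks), and 8.1 and 6.48 tags in WT cells with and without it (9 and 12 peaks).

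The PDX1 peak 8.3 kb upstream of Csf1 was the strongest of these genes, and it lay on the p65 site described above. It had 41.5 tags in Bmal1-/- cells with IL-1β (36.6 to 46.8), 19.9 tags in Bmal1-/- control cells (16.5 to 23.7), 89.4 tags in WT cells with IL-1β (82.1 to 97.2) and 40.9 tags in WT control cells (35.9 to 46.3). In each genotype the value with IL-1β was the higher, with intervals that did not overlap. The ratio of IL-1β to control was 2.09 in Bmal1-/- cells and 2.19 in WT cells, at percentiles 99.7 and 98.6 of all PDX1 peaks in both lists of a genotype, whose medians were 0.785 (4906 peaks) and 1.09 (24043 peaks). A pair of PDX1 peaks on the far side of Csf1, nearer to Ahcyl1 and with no p65 peak on them, had ratios of 0.697 and 0.625 in Bmal1-/- cells and 0.932 and 0.833 in WT cells. Other neighbouring PDX1 peaks without p65 had WT ratios of 1.68 at Timm8b and 1.42 at Ckap2l. At the genes themselves, WT sites without a p65 peak had ratios of 2.04 and 1.74 at a pair of Il15 sites, 2.01 at Lif, 1.44 at Il18 and 1.24 at Il1b. Further WT sites with a p65 peak had ratios of 1.45 at Csf1 30 kb upstream and 1.14 at Il15 43.9 kb below its lower-coordinate end. At these sites of the genes themselves, the intervals with IL-1β and in control cells were apart for the Il15 ratio of 2.04 and overlapped for the others. The Il15 ratio of 1.74 came from peaks that met only at their edges (82401728 to 82401954 with IL-1β and 82401524 to 82401730 in control cells). Across all WT PDX1 peaks in both lists the median ratio was 2.19 at the 201 that overlapped a p65 peak of at least 100 tags, 1.17 at the 7260 with any p65 peak and 1.05 at the 16783 with none. In Bmal1-/- cells it was 1.47 at the 12 with a p65 peak of at least 100 tags, 0.805 at the 2284 with any p65 peak and 0.766 at the 2622 with none. The Csf1 ratio in WT cells equalled the median of PDX1 peaks at p65 sites of at least 100 tags. In Bmal1-/- cells the Csf1 site had 60.6 p65 tags and so was not among those 12 peaks, and its ratio of 2.09 lay above their upper quartile of 1.82 and above the upper quartile of 0.933 of peaks with any p65 peak. The antibody label of the samples behind these IL-1β values names p65, and its part in the ratio was not tested. The Bmal1-/- control peak at Csf1 was 5.33-fold over input, so the Bmal1-/- ratio could not be formed with an 8-fold limit. Bmal1-/- PDX1 peaks were 418 and 472 bp wide with and without IL-1β and WT ones 226 and 207 bp, so tags of the genotypes come from unequal widths.

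**Figure D4:**
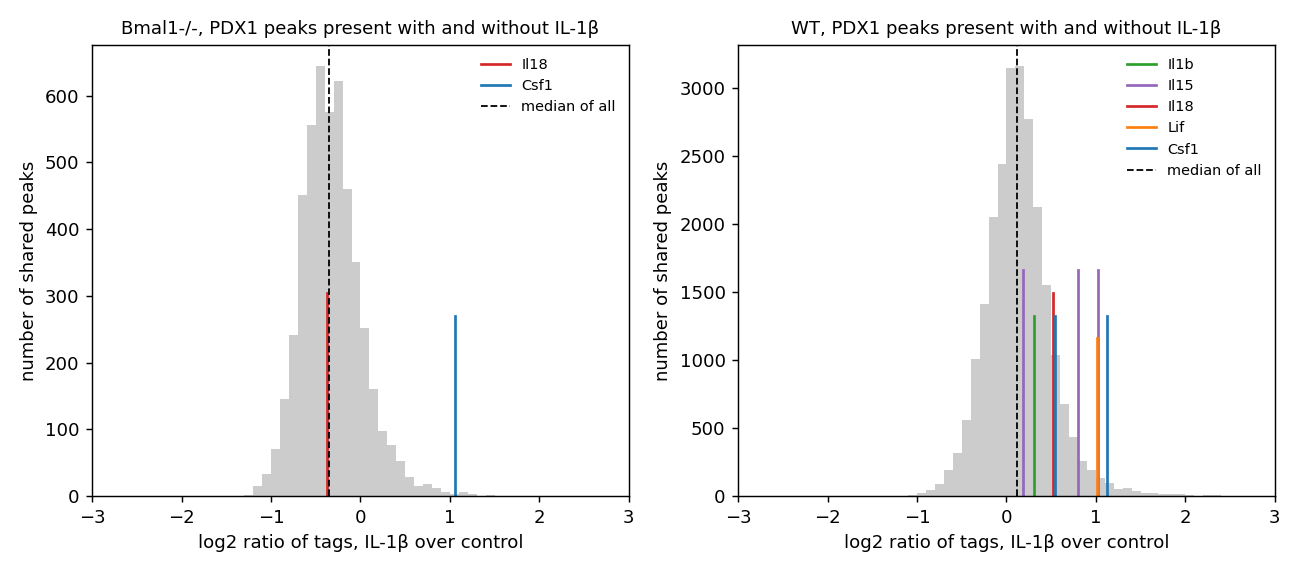
Number of PDX1 peaks present with and without IL-1β (vertical) by the log2 ratio of their tags, IL-1β over control (horizontal), in Bmal1-/- cells (left) and WT cells (right); coloured lines mark the peaks at the named genes, their height having no meaning, and the dashed line the median of all peaks. The Csf1 site 8.3 kb upstream, with ratios of 2.09 and 2.19, lies at the right edge in both genotypes.

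At the strong p65 sites of Tnf and of Csf1 15.5 kb upstream, PDX1 was listed with IL-1β only, and in 1 genotype each. Tnf had a PDX1 peak in Bmal1-/- cells with IL-1β, of 17.1 tags (14.0 to 20.6, against a median of 13.6 tags for the list) and 4.53-fold over input, at the p65 site (205 tags), and no PDX1 peak in WT cells with IL-1β, where p65 had 319.8 tags. A PDX1 peak in Bmal1-/- and not in WT cells with IL-1β was found for 0.516% of all genes. At Csf1 15.5 kb upstream PDX1 had 6.96 tags in WT cells with IL-1β (5.04 to 9.38), against 245.8 p65 tags, and no peak in Bmal1-/- cells with IL-1β. The Csf1 peak was 4.19-fold over input, and neither peak remained at 8-fold. The labels of both sets of samples name p65 as the antibody, and its part in these peaks was not tested.

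Il18 had a single PDX1 site, inside the gene and 20.2 kb after its start, in all 4 lists. It had 5.79 tags in Bmal1-/- cells with IL-1β (4.08 to 7.98), 7.5 tags in Bmal1-/- control cells (5.49 to 10.0), 16.7 tags in WT cells with IL-1β (13.6 to 20.2) and 11.6 tags in WT control cells (9.07 to 14.7). The intervals of IL-1β and control overlapped in each genotype, and with IL-1β the Bmal1-/- interval lay below the WT interval. The peaks with IL-1β were 6.16-fold over input in Bmal1-/- cells and 7.17-fold in WT cells, and neither remained at 8-fold. Il15 had 3 PDX1 peaks with IL-1β (7.77 to 18.6 tags) and 5 without it (3.82 to 9.14 tags) in WT cells, and none in Bmal1-/- cells. The highest of these, inside the gene, had 18.6 tags with IL-1β (15.4 to 22.4) and 9.14 tags in control cells (6.88 to 11.9). Il1b had 1 PDX1 peak beyond its far end in both WT lists (5.99 tags with IL-1β and 4.82 tags in control cells). Another, inside Il1b, was in the WT control list alone with 11.5 tags (8.92 to 14.5). Lif had 1 PDX1 peak 22 kb beyond its far end in both WT lists (5.67 and 2.82 tags, with and without IL-1β). Like Il15, Il1b and Lif had no PDX1 peak in Bmal1-/- cells. A peak in WT and not in Bmal1-/- cells was found for 25.8% of all genes with IL-1β and 25.9% without it. The lowest listed Bmal1-/- values were 4.54 and 5.05 tags, with and without IL-1β. With IL-1β, 1.29% of Bmal1-/- tags lay inside peaks, against 5.55% in WT cells. Whether values like these WT ones would have been listed in Bmal1-/- cells was not tested. Il6, Il1a and Csf2 had no PDX1 peak in any list.

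PDX1 peaks of these genes were compared between treatments and between genotypes, each beside the share of all peaks. With IL-1β, 2 of 3 peaks in Bmal1-/- cells overlapped a control peak (60.6% of all peaks), and 8 of 9 in WT cells did (61.8% of all peaks). Of the control peaks 2 of 2 in Bmal1-/- cells (58.8% of all) and 8 of 12 in WT cells (60.1% of all) overlapped a peak with IL-1β. All 8 WT peaks in both lists had a ratio of IL-1β to control tags above the median of 1.09, their own median being 1.6. The intervals of the 2 treatments were apart at Csf1 8.3 kb upstream (2.19) and at the highest Il15 peak (2.04), and overlapped at the others. Control peaks without a counterpart with IL-1β, such as the one inside Il1b (11.5 tags), have no ratio and are not among the 8. Of the Bmal1-/- peaks 2 of 3 with IL-1β (89.9% of all) and 2 of 2 without it (91.6% of all) overlapped a WT peak of the same treatment. In the other direction 2 of 9 WT peaks with IL-1β (18.7% of all) and 2 of 12 without it (19.1% of all) overlapped a Bmal1-/- peak.

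The overlap of p65 and PDX1 was counted from both sides. With IL-1β, 2 of 12 p65 peaks in Bmal1-/- cells (21.9% of all p65 peaks) and 4 of 24 in WT cells (33.8% of all) overlapped a PDX1 peak of the same condition. Of the PDX1 peaks 2 of 3 in Bmal1-/- cells (43.8% of all PDX1 peaks) and 4 of 9 in WT cells (27.2% of all) overlapped a p65 peak. The sites were Tnf and Csf1 8.3 kb upstream in Bmal1-/- cells, and 3 Csf1 sites and a weak site 43.9 kb below the lower-coordinate end of Il15 in WT cells.

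SIN3A had a peak at Csf1 alone among the 9 genes, at the start site and on the p65 peak there. It had 20.9 tags with Pdx1 siRNA (16.4 to 26.2) and 22.5 tags with control siRNA (17.6 to 28.5), and these intervals overlap. Of all genes 50.5% with Pdx1 siRNA and 48.1% with control siRNA had a SIN3A peak, as against 1 of 9 here in both. The Csf1 peak was found in both lists, as were 65.6% of all peaks with Pdx1 siRNA and 73.4% of those with control siRNA. It overlapped the WT p65 peak with IL-1β, as 12.4% of all SIN3A peaks with control siRNA did, and 1 of 24 p65 peaks overlapped SIN3A, as against 5.19% of all p65 peaks. SIN3A and p65 were measured in cells of different treatments.

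Receptors, antagonists and processing enzymes of these cytokines carried p65 with IL-1β as well. Of 23 such genes, from a list also chosen with earlier results known, 13 had a p65 peak in Bmal1-/- cells with IL-1β (33.0% of all genes) and 13 in WT cells with IL-1β (46.1% of all genes). None had one in Bmal1-/- control cells (0.676% of all genes) and 2 in WT control cells, Il6st and Adam17 (9.01% of all genes). The highest p65 value in WT cells with IL-1β lay at Il18rap, the accessory chain of the IL-18 receptor, with 49.6 tags in Bmal1-/- and 159.0 tags in WT cells with IL-1β. Il1r2, the decoy receptor that binds IL-1 without signalling and the highest of the list in Bmal1-/- cells, had 56.0 and 125.3 tags, and Adam17, the protease that releases TNF from the membrane, had 46.6 and 114.5 tags, in Bmal1-/- and WT cells. Il6st, the signalling chain shared by the receptors of interleukin-6 and LIF, had 28.8 tags in Bmal1-/- and 63.5 tags in WT cells. Il15ra had 20.3 tags in Bmal1-/- and 58.5 tags in WT cells, and Il1r1, the signalling receptor of IL-1, had 30.0 tags in Bmal1-/- and 55.7 tags in WT cells. Il1rap and Csf1r each had 4.41 tags in Bmal1-/- cells, and 13.4 and 10.3 tags in WT cells. These 8 genes were named for their WT values, so their order between genotypes is no result. Lifr, a receptor chain for LIF, had 15.9 tags in Bmal1-/- and 8.41 tags in WT cells. Il6ra and Il1rn had a p65 peak in Bmal1-/- and none in WT cells with IL-1β, as did 2.91% of all genes. Il18r1 (9.34 tags) and Csf2rb2 (5.79 tags) had one in WT and none in Bmal1-/- cells with IL-1β, as did 16.1% of all genes. Lifr and these genes were chosen after their values were seen. PDX1 had a peak at 4 of the 23 in Bmal1-/- cells with IL-1β (16.1% of all genes) and 6 without it (16.5% of all genes), and at 13 in WT cells with IL-1β (41.4% of all genes) and 10 without it (42.0% of all genes). Il1r1 had PDX1 peaks in all 4 lists, of 29.1 and 34.1 tags at most in Bmal1-/- cells and 43.7 and 34.1 tags at most in WT cells, with and without IL-1β. SIN3A had a peak at 9 of the 23 with Pdx1 siRNA (39.1%, as against 50.5% of all genes) and 7 with control siRNA (30.4%, as against 48.1% of all genes), the highest at Csf2ra, with 280.8 tags with Pdx1 siRNA and 247.0 tags with control siRNA.

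The genes whose highest peaks over the 10 lists lay closest to those of Tnf were, in order, Col17a1, Tmem229a, Birc3, Zp2 and Emilin1. Likeness was the Euclidean distance of log2(tags + 1), with 0 for no peak, and ran from 3.37 for Col17a1 to 4.91 for Emilin1. All 5 had p65 peaks in both IL-1β lists, of 35.7 to 78.6 tags in Bmal1-/- cells and 60.5 to 110.2 tags in WT cells. Each was below the Tnf values of 205 and 319.8 tags. Col17a1, Tmem229a and Zp2 also had a PDX1 peak in Bmal1-/- cells with IL-1β, of 7.04 to 8.14 tags, as Tnf did. Unlike Tnf, Zp2 had a PDX1 peak in WT cells with IL-1β (10.7 tags) and a p65 peak in WT control cells (3.91 tags). Tmem229a had a PDX1 peak in WT control cells (3.32 tags), where Tnf had none. The 5 genes were picked by these same values, so the peaks they share with Tnf are no separate result.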

How the data were processed

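The labels describe 34 ChIP-seq samples, 28 immunoprecipitated and 6 inputs. The deposited files are 10 peak lists, 1 per group. HOMER findPeaks made them, per the file headers, requiring a false discovery rate of 0.001 and 4-fold over input and over the surrounding 10 kb. Pooling of replicates is not stated. Bowtie2, HOMER and mm10 are named in the submitters' processing notes. The signal used is the authors' tag count in a peak per 10 M tags, per the file headers. Multiplied by depth, every deposited count under 10 was within 0.1 of a whole tag, which gives the Poisson intervals. The authors' fold over input, a ratio, served as a filter.

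Peaks were assigned to 21887 protein-coding gene bodies (RefSeq, GRCm38.p6), and tied genes each counted. Lists were compared by overlap of at least 1 bp. Tag ratios took peaks present in both lists, whose widths were 206 to 231 bp for p65 with IL-1β and WT PDX1, and 418 and 472 bp for Bmal1-/- PDX1. Ratios, and the split of PDX1 peaks by p65, were added after the values had been seen. All 9 genes are named, as are up to 8 receptor-related genes by WT p65 tags with IL-1β and the 5 genes most like Tnf. The members and lists were chosen with earlier results of these data known. Assignment and overlap were tested on simulated data. Python 3.11.15, scipy 1.17.1 and matplotlib 3.10.9 were used. Alternatives were windows of 10 and 100 kb, any gene within 50 kb, at least 8-fold over input, and 3 other definitions of a shared peak.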

Additional observations from a re-analysis of the deposited data

How the results depend on the processing

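No paired analysis was possible because the lists hold no value per replicate, and for the same reason leaving out each replicate was not run; with 1 list per group, the spread between replicates limits every statement. Of 104 recomputed counts 77 stayed within 1.5 times, among them all with a window of 100 kb, with centres within 100 bp and with peaks within 500 bp. For the others the cause is that the stricter rule keeps fewer peaks or the looser one admits neighbouring genes. At 8-fold over input, the genes with a peak numbered 1 for WT control p65, 1 and 1 for Bmal1-/- PDX1 with and without IL-1β and 3 for WT PDX1 with IL-1β. Their peaks numbered 7 for Bmal1-/- p65 with IL-1β, 1 for WT control p65, 1 and 1 for Bmal1-/- PDX1 with and without IL-1β, and 4 and 6 for WT PDX1 with and without IL-1β. Shared peaks at 8-fold in both lists were 0 for WT p65 with IL-1β and control, 6 for p65 with IL-1β in Bmal1-/- and WT cells, 0 for Bmal1-/- PDX1 and 2 for WT PDX1 with IL-1β and control, 1 and 1 for PDX1 in Bmal1-/- and WT cells with and without IL-1β, and 1 and 1 for p65 with PDX1 in Bmal1-/- and WT cells with IL-1β. A reciprocal overlap of 50% left 0 shared peaks for control PDX1 in Bmal1-/- and WT cells, since a peak of 207 bp cannot cover as much of one of 472 bp. Within 10 kb, p65 with IL-1β had 7 peaks in Bmal1-/- and 10 in WT cells, and WT PDX1 with IL-1β 4 peaks at 3 genes. Counting any of the 9 genes within 50 kb gave 8 genes for WT PDX1 with IL-1β and 8 without it, and 5 genes for SIN3A with Pdx1 siRNA and 5 with control siRNA. For p65 with IL-1β it gave 7 genes in Bmal1-/- cells and 9 in WT cells.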

Other observations

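Several peaks within 50 kb of Il18, Il1a and Tnf were nearer to other genes and so were not assigned to them. Around Il18, where no p65 peak was assigned, p65 peaks were assigned to Sdhd, a subunit of mitochondrial complex II (6.71 tags in Bmal1-/- cells and 10.5 tags in WT cells with IL-1β at the site nearest to Il18), and to Nkapd1 (9.71 and 14.6 tags). That Sdhd site lay 9097 bp from Il18 in Bmal1-/- cells and 9024 bp in WT cells.

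SIN3A was listed beside several of the genes without being assigned to them. The site nearest to Il1a, 2432 bp from it with Pdx1 siRNA and 2365 bp with control siRNA, lay on Ckap2l, which encodes a mitotic spindle protein, and had 56.3 tags with Pdx1 siRNA and 42.8 tags with control siRNA. Around Tnf, SIN3A lay on Prrc2a, Lst1, Atp6v1g2, Nfkbil1 and Ddx39b, where the peak on Prrc2a had 26.9 tags with Pdx1 siRNA and 25.1 tags with control siRNA. The SIN3A peak on Lst1, 13103 bp from Tnf with Pdx1 siRNA and 12987 bp with control siRNA, had 14 tags with Pdx1 siRNA and 7.09 tags with control siRNA. In WT cells 1 PDX1 peak with IL-1β (13.9 tags) and, in control cells, 5 weak peaks (3.16 to 9.8 tags) lay between 2013 and 40565 bp from Il1a and were nearer to Ckap2l.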
